A study of Homo sapiens with 9 samples.

Results

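The genes of the nuclear pore and of nuclear transport were examined in H1299 cells depleted of FIBP. Members were matched by gene symbol: nucleoporins, importins, transportins and exportins, and genes of the Ran cycle. The symbols do not cover every gene of these families. The exportin CSE1L, for one, is in a list outside the rule that is taken up below. The set was picked with earlier results of these data known. The symbols gave 57 of the 60966 genes in the deposited tables, of which 31 encode pore proteins and 26 encode transport factors. The matching itself used no measured value.

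H1299 is an established cell line from a human non-small cell lung cancer. RNA-seq of poly(A)-selected RNA was performed on 3 samples that received a scrambled siRNA (Scramble), 3 that received Si-FIBP#1 and 3 that received Si-FIBP#2. The last 2 are different siRNAs against FIBP. All groups were transfected, and no untransfected cells were analysed here. The samples come from 1 cell line, and nothing in the labels says whether the 3 samples of a group were separate cultures. The p-values below therefore set group differences against the spread between these samples, which may be technical.

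The nuclear pore is a ring of nucleoporins that pierces the nuclear envelope. Y complexes form its outer rings, an inner ring lines it and is anchored to the membrane, a channel of phenylalanine-glycine repeat proteins holds the permeability barrier, and filaments reach into the cytoplasm on the outside and into a basket on the nuclear side. Cargo crosses with importins or exportins. RCC1, which sits on chromatin, loads the GTPase Ran with GTP inside the nucleus, while RANGAP1 and RANBP1 promote GTP hydrolysis outside, and this gradient gives transport its direction. In mitosis the pores come apart, and the same Ran gradient and several importins take part in building the spindle.

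The deposited values are FPKM, that is, the fragments of a transcript scaled to its length and to the mapped fragments of the library, and they were summed here per gene. The sums over all genes ranged from 781058 to 818104 FPKM per library, and the depth estimated from the steps between low values was 20150000 to 23800000 fragments. Across the 14985 genes tested, which are not independent replicates, log2 values correlated at 0.983 to 0.988 between samples of the same group at 0.977 to 0.983 between samples of different siRNAs against FIBP and at 0.956 to 0.964 between Scramble and FIBP-depleted samples. Si-FIBP#2 replicate 2 correlated with Si-FIBP#1 replicate 2 (0.983) about as well as with its own group (0.983 and 0.984), and members whose call changes without it are named. FIBP itself was at 81.9 ± 5.71 FPKM (SD, n = 3) in Scramble and 6.52 ± 1.93 and 7.09 ± 1.15 for Si-FIBP#1 and Si-FIBP#2. Of the epithelial markers, KRT8 (107, 73.4 and 75.9 FPKM on average in Scramble, Si-FIBP#1 and Si-FIBP#2) and KRT18 (476, 209 and 175 FPKM) were lower with each siRNA, whereas KRT19, EPCAM and CDH1 stayed at or below 0.29 FPKM. Of the mesenchymal markers, VIM was lower with each siRNA (3232, 2307 and 1988 FPKM), CDH2 was higher with each (13.3, 17.3 and 18.3 FPKM) and FN1 was lower with Si-FIBP#2 alone (11.2, 12.3 and 7.67 FPKM). These calls are from the limma fit described next, and the part of these markers in the results was not tested. The blood cell markers PTPRC, CD3E, CD14 and HBB and the endothelial markers PECAM1, CDH5 and VWF were at or below 0.41 FPKM in every library.

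Genes were tested with limma in 1 fit that held all 9 samples, after log2(FPKM + 1) transformation, and passed at a Benjamini-Hochberg adjusted p below 0.05 over all 14985 genes. All log2 fold changes refer to FPKM + 1, so that changes of low genes come out too small. Of the 57 members, 55 passed the filter of at least 1 FPKM in at least 3 samples. The other 2, KPNA7 (0 to 0.07 FPKM) and NUP210L (0 to 0.04 FPKM), were at or near 0 in all 9 libraries and were not tested.

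The tested members are abundant genes. In Scramble cells their median was 36.3 FPKM, against 10.0 FPKM for all genes tested, and 53 of 55 lay above that second value. The 4 highest were RAN (439 FPKM), RANBP1 (345 FPKM), the importin beta KPNB1 (258 FPKM) and the importin alpha KPNA2 (244.5 FPKM, from 242 to 248). RANBP1 and RAN did not overlap in their Scramble samples, whereas the ranges of KPNB1 (232 to 279 FPKM) and KPNA2 did. The exportin XPO1 followed at 120 FPKM, and the lowest tested member was the importin alpha KPNA5 at 6.64 FPKM. Replicates were close, with a median coefficient of variation over the members of 4.03% in Scramble, 4.99% after Si-FIBP#1 and 6.20% after Si-FIBP#2.

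The question of the comparison with Scramble is which genes respond when FIBP is depleted. With each siRNA taken by itself, most of the 55 tested pore and transport genes passed as lower. With both siRNAs 27 of 55 did, beside 13.7% of all genes tested. Transport factors alone were lower in 9 of 25 after Si-FIBP#2, beside 17.7%. The FPKM of the 57 members added up to 3218 to 3318 in Scramble, 2364 to 2465 after Si-FIBP#1 and 2381 to 2474 after Si-FIBP#2, so the depleted samples lay below all Scramble samples. This was 0.417% ± 0.0081 (SD, n = 3) of the library sum in Scramble and 0.298% ± 0.0091 and 0.311% ± 0.0053 for Si-FIBP#1 and Si-FIBP#2. Such sums weigh abundant genes most and do not describe the typical member, whose median log2 fold change was -0.29. RAN, RANBP1, KPNB1 and KPNA2 averaged 439, 345, 258 and 244.5 FPKM in Scramble. They averaged 291, 196, 190 and 141 FPKM after Si-FIBP#1, and 316, 195, 163 and 153 FPKM after Si-FIBP#2. The 10 most abundant genes made up 11.4% to 11.6% of the library sum in Scramble, 14.9% to 15.1% for Si-FIBP#1 and 12.9% to 13.4% for Si-FIBP#2, and 13894 to 14124 genes reached 1 FPKM in Scramble against 14406 to 14715 in depleted samples. The part of this shift in composition in the result was not tested. In these bulk samples, fewer cells that express a gene and less RNA per cell cannot be told apart.

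With Si-FIBP#1, 33 of the 55 tested members were lower than in Scramble and 3 were higher, where 19.9% of all genes tested were lower and 27.8% were higher. With Si-FIBP#2, 29 members were lower and 5 were higher, beside 17.7% and 31.1% of all genes tested. The count of 5 was 2 under median ratio scaling, which divides each sample by its median ratio to the geometric mean of each gene, and 3 without Scramble replicate 2. That scaling also moved the median over all genes tested down, to 0.01 for each siRNA, and the all-gene shares of calls under it were not counted. Under median ratio scaling 40 and 39 members were lower for Si-FIBP#1 and Si-FIBP#2. Those added were NUP88, XPO5, KPNA1, KPNA3, IPO7, TNPO1 and POM121 for the first and RANGAP1, SEC13, SEH1L, NUP88, XPO5, IPO11, IPO5, TNPO1, TNPO2 and NUP210 for the second, at adjusted p between 0.002 and 0.0463 (limma). The median log2 fold change of the members was -0.29 with either siRNA, whereas the median over all genes tested was 0.07 after Si-FIBP#1 and 0.11 after Si-FIBP#2. A total of 27 members passed as lower with each siRNA (13.7% of all genes tested did so), 3 as higher with each (21.8%), and 15 passed in neither comparison. These comparisons share their 3 Scramble samples. In 32 members all 6 depleted samples lay below all 3 Scramble samples, as they did in 16.5% of all genes tested, and in 3 members they all lay above, as in 26.3%.

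Most of these changes were moderate. At the 2-fold threshold of the study's methods, combined with an adjusted p below 0.05, 3 members were lower after Si-FIBP#1 (NUP35, RCC1 and NDC1, where 3.11% of all genes tested were) and 3 after Si-FIBP#2 (NUP35, RCC1 and NUP153, where 2.13% were). Among the members, 0 rose over 2-fold in the limma fit (also 0 at an unadjusted p below 0.05), where 2.55% of all genes tested did after Si-FIBP#1 and 2.92% after Si-FIBP#2, and the largest rise was that of RANBP2, by 0.51 on the log2 scale. NDC1 and NUP153 lay close to the 2-fold line in both comparisons. The threshold was applied to FPKM + 1, and in FPKM alone NDC1 was at 48.6% of the Scramble mean after Si-FIBP#2. Under median ratio scaling 5 members were past it after Si-FIBP#2, with NDC1 (-1.10) and NUP107 (-1.05) added. NUP153 was not past it without Si-FIBP#2 replicate 3 or with annotated transcripts alone, where NDC1 was. With NDC1 added, 4 members were past it after Si-FIBP#2 with a pseudocount of 0.1, without Scramble replicate 1 and without Si-FIBP#2 replicate 1. Without the 2-fold threshold, pore proteins were lower in 20 of 30 tested with each siRNA, beside 19.9% and 17.7% of all genes tested for Si-FIBP#1 and Si-FIBP#2. Transport factors were lower in 13 of 25 after Si-FIBP#1 and 9 of 25 after Si-FIBP#2, beside the same shares. The difference between these groups of genes was not tested.

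**Figure D1:**
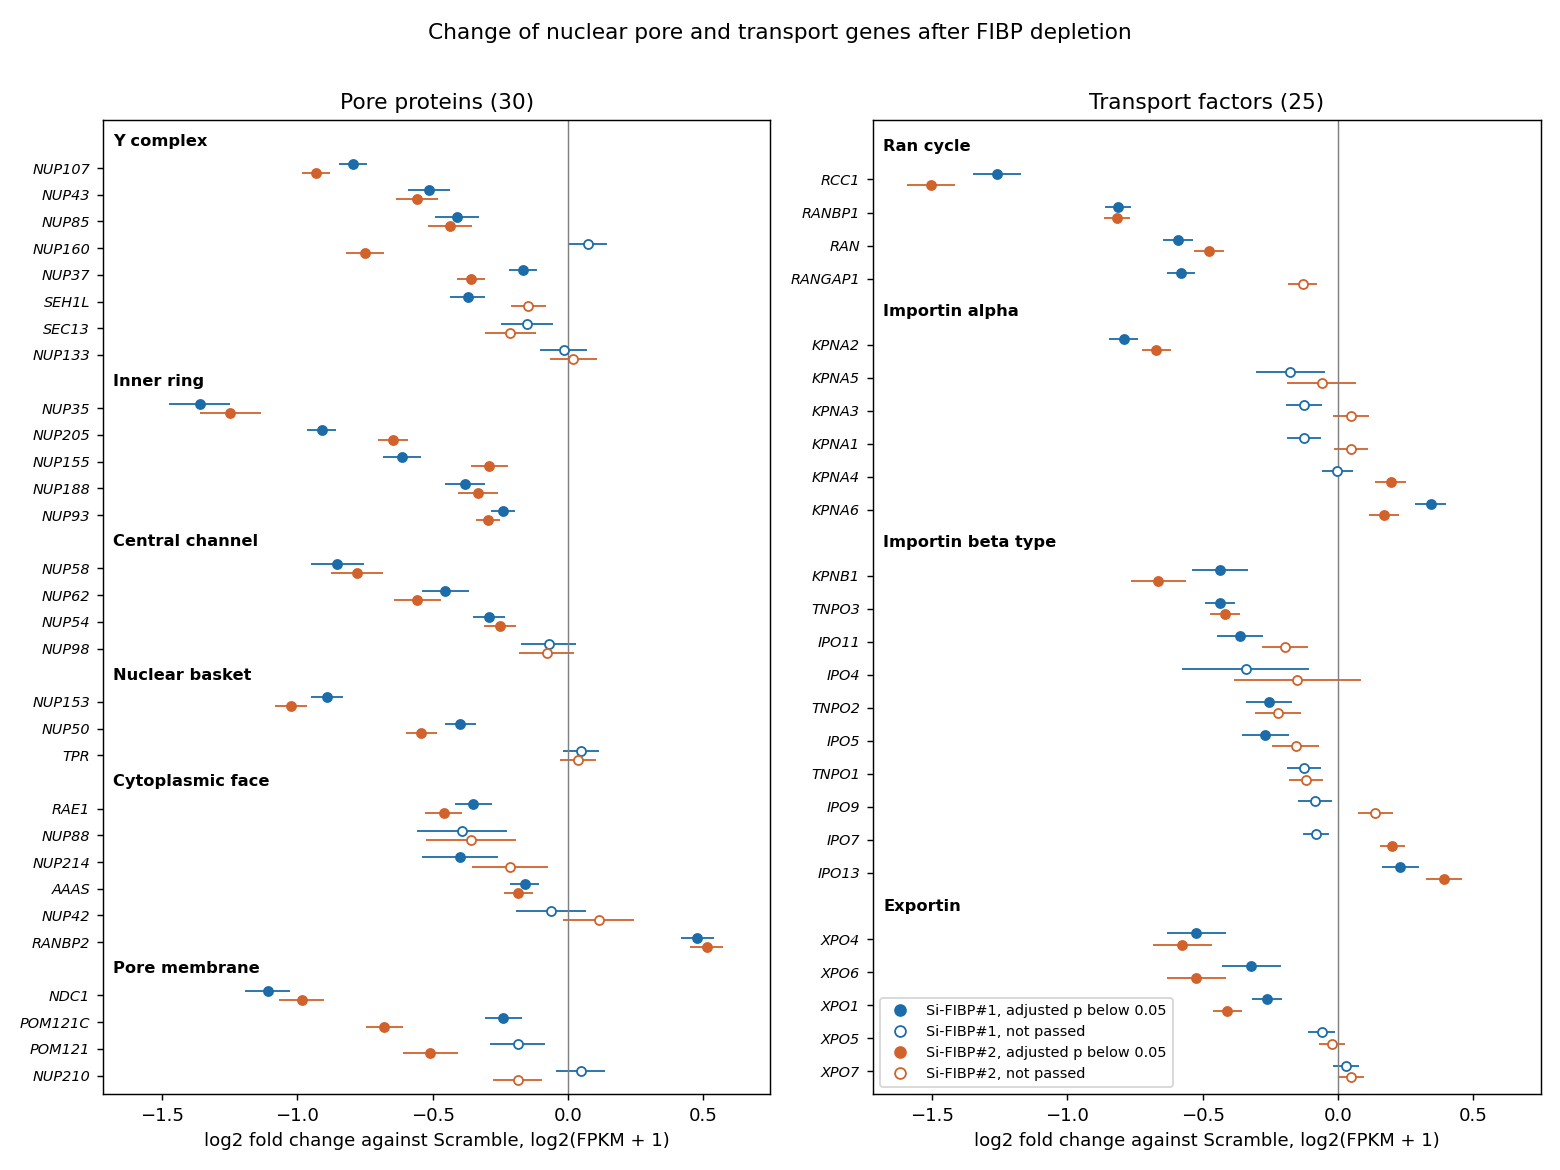
Log2 fold change against Scramble on the log2(FPKM + 1) scale (x axis) of the 30 pore protein genes (left) and 25 transport factor genes (right) tested, grouped by role. Blue points are Si-FIBP#1, orange points are Si-FIBP#2, bars are standard errors from limma (n = 3 samples per group), and filled points passed at an adjusted p below 0.05; most points lie left of 0, down to RCC1 and NUP35, and RANBP2 stands to the right.

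The members past the 2-fold threshold with either siRNA are shown with a stretch of their promoters. The stretches hold 30 bases 5′ to 3′ on the gene's strand, from RefSeq (GRCh38.p14), and lie before a transcript start that RefSeq lists. Capitals mark TTTGAA, the core of the cell cycle homology region at which DREAM and MuvB complexes are known to bind, or, for RCC1, which lacks it, CCGGAAG, the core of ETS family sites. In NDC1 the match begins 31 bases before the start (chr1:53838310-53838339, minus strand), in NUP35 it begins 35 bases before (chr2:183124396-183124425, plus strand), in NUP153 it begins 241 bases before and reads as TTCAAA on this strand (chr6:17707146-17707175, minus strand), and in RCC1 it begins 50 bases before and reads as CTTCCGG (chr1:28505982-28506011, plus strand).
NDC1: ggccttcctgccTTTGAActgcggtggcgg
NUP35: gtttccgccattTTTGAAaattaattggga
NUP153: aagtgtcttTTCAAAgtctaatttacagcc
RCC1: acattccaggaCTTCCGGgcacttcgtaag

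RefSeq promoters of 300 bases (250 before and 50 after each listed start) were at hand for 50 of the 57 members. Of 11 strings searched on both strands, which were chosen with the expression values known, TTTGAA was present in 13 of these 50 (26.0%), in 13.2% of 10204 tested genes with a promoter and in 18.2% of all 27305. By response, it was in 9 of the 24 members that were lower with each siRNA (KPNA2, NDC1, NUP153, NUP205, NUP35, NUP37, NUP50, NUP93 and RAN) and in 4 of the other 26. CCGGAAG was present in 17 of 50 (34.0%), against 23.1% of tested genes, with 10 among the 24 and 7 among the 26. CCAAT was present in 42.0% of members and 43.5% of tested genes. TTCGAA, another form of the cell cycle homology core, was present in 2.0% and 2.40%, the E-box CACGTG in 18.0% and 12.8%, and ACTACAA, part of the ZNF143 site, in 6.0% and 4.77%. The E2F-type strings TTTGGCGC, TTTGGCGG, TTTCCCGC, TTTCGCGC and TTTGCCGC were present in between 0 and 2 of the 50 promoters, and in 1.39%, 1.39%, 3.36%, 1.28% and 1.17% of tested genes, which is near the same share. A match describes letters in this window only.

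Among the genes of the Ran cycle, all 4 were lower after Si-FIBP#1 (19.9% of all genes tested) and 3 of 4 after Si-FIBP#2 (17.7%). RCC1, the nucleotide exchange factor that loads Ran with GTP on chromatin, was at 85.53, 81.31 and 83.62 FPKM in Scramble, against 35.67, 34.65 and 32.58 FPKM for Si-FIBP#1 and 33.38, 25.24 and 28.23 FPKM for Si-FIBP#2. The groups were far apart, with the highest depleted sample below all of Scramble. The log2 fold changes were -1.26 and -1.50 for Si-FIBP#1 and Si-FIBP#2 (limma, standard error 0.09 for each, adjusted p = 4.93e-06 and 2.26e-06), which left 41.1% and 34.7% of the Scramble mean.

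RCC1 (ENSG00000180198) spans 28505943 to 28539300 on the plus strand of chromosome 1 in GENCODE release 29 (GRCh38), and there it overlaps SNHG3, a small nucleolar RNA host gene on the same strand. Reads shared between them could be counted for either. SNHG3 was at 34.6 ± 1.64 FPKM (SD, n = 3) in Scramble and 28.8 ± 9.45 and 27.8 ± 2.04 for Si-FIBP#1 and Si-FIBP#2, and did not pass with either siRNA (adjusted p = 0.18 and 0.167, limma). The most abundant RCC1 transcript, ENST00000373832, was at 44.4, 20.8 and 16.0 FPKM on average in the 3 groups. A transcript of 2925 nt that the authors assembled from the reads was at 12.2, 2.78 and 2.75 FPKM, and its share of the gene went from 14.7% to 8.11% and 9.49%.

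RANBP1, which binds Ran-GTP and assists its hydrolysis in the cytoplasm, was at 331.05, 366.55 and 338.23 FPKM in Scramble. It was at 197.68, 188.74 and 201.71 FPKM for Si-FIBP#1 and 193.81, 200.29 and 192.3 FPKM for Si-FIBP#2. The depleted groups were at 56.8% and 56.6% of the Scramble mean, and both changes passed, at -0.81 and -0.82 on the log2 scale (limma, adjusted p = 2.1e-06 and 2.46e-06). RANBP1 overlaps TRMT2A, which lies on the opposite strand, and whether the counting used strand is not given in the sources used here. Its intron-retaining transcript ENST00000488484 was at 12.9 ± 5.72 FPKM (SD, n = 3) in Scramble and 2.94 ± 0.62 and 2.46 ± 2.43 for Si-FIBP#1 and Si-FIBP#2.

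RAN, the GTPase itself, was at 417.63, 458.34 and 441.59 FPKM in Scramble. It was at 297.42, 278.51 and 297.39 FPKM for Si-FIBP#1 and 303.31, 305.22 and 338.08 FPKM for Si-FIBP#2, so the groups did not overlap. The log2 fold changes were -0.59 and -0.48 (limma, adjusted p = 3.06e-05 and 0.000121). RANGAP1, the activating protein that triggers GTP hydrolysis by Ran, was at 79.81, 75.11 and 70.8 FPKM in Scramble, against 49.29, 50.04 and 50.51 FPKM for Si-FIBP#1 and 67.03, 68.91 and 69.87 FPKM for Si-FIBP#2. Its fall by 0.58 on the log2 scale passed after Si-FIBP#1 (limma, adjusted p = 2.21e-05), whereas the value of -0.13 after Si-FIBP#2 did not (adjusted p = 0.0659). The latter passed under 4 of 18 alternatives, namely median ratio scaling (-0.25, adjusted p = 0.002), annotated transcripts alone (-0.18, adjusted p = 0.0244), transcripts under 500 nt left out (-0.13, adjusted p = 0.0354) and without Scramble replicate 3 (-0.17, adjusted p = 0.0337).

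The 6 tested importins alpha, which recognise the classical nuclear localisation signal, did not move together, and their counts are near the background: 1 was lower with each siRNA, beside 19.9% and 17.7% of all genes tested, and 1 and 2 were higher, beside 27.8% and 31.1%. KPNA2 was the only one of them that passed as lower, except that KPNA1 and KPNA3 also passed for Si-FIBP#1 under median ratio scaling (-0.20 for each, limma, adjusted p = 0.0236 and 0.0434). It was at 242.13, 243.52 and 247.79 FPKM in Scramble, against 136.03, 141.82 and 144.59 FPKM for Si-FIBP#1 and 159.3, 141.45 and 159.68 FPKM for Si-FIBP#2. All depleted samples were far below the lowest Scramble sample, and the log2 fold changes were -0.79 and -0.67 (limma, adjusted p = 3.92e-06 and 1.23e-05).

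KPNA6 was higher with each siRNA. It was at 19.77, 18.95 and 18.59 FPKM in Scramble, against 24.79, 23.6 and 25.12 FPKM for Si-FIBP#1 and 22.18, 21.85 and 20.85 FPKM for Si-FIBP#2. Its rise was 0.34 after Si-FIBP#1 (limma, adjusted p = 0.000863), and from 0.27 to 0.60 under the 18 alternatives, where it always passed (adjusted p of up to 0.0279). After Si-FIBP#2 the rise was 0.17 (adjusted p = 0.0312). The latter did not pass under median ratio scaling (0.05, adjusted p = 0.445) or without Scramble replicate 2 (0.16, adjusted p = 0.0872), without Scramble replicate 3 (0.15, adjusted p = 0.099), without Si-FIBP#2 replicate 1 (0.15, adjusted p = 0.0864) or without Si-FIBP#2 replicate 2 (0.16, adjusted p = 0.0539), while with annotated transcripts alone it was 0.45 (adjusted p = 0.0737) and with the compared groups alone 0.17 (adjusted p = 0.056). KPNA4 was at 24.9 FPKM in Scramble and after Si-FIBP#1 and at 28.7 FPKM after Si-FIBP#2 (adjusted p = 0.0203, limma, and 0.312 under median ratio scaling; also not passed without Scramble replicate 1, without Scramble replicate 2 or without Si-FIBP#2 replicate 3, with 0.0553, 0.0679 and 0.0646). KPNA1, KPNA3 and KPNA5 did not pass in either comparison of the fit reported, with group means of 85.9% to 104% of Scramble. As KPNA2 makes up most of this family, its share of the summed importin alpha FPKM was 71.3% ± 0.45 (SD, n = 3) in Scramble and 58.8% ± 1.13 and 59.1% ± 1.73 for Si-FIBP#1 and Si-FIBP#2.

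Of the 10 importin beta type receptors that the rule matched, 5 were lower and 1 was higher after Si-FIBP#1, and 2 were lower and 2 higher after Si-FIBP#2. Of all genes tested, 19.9% were lower and 27.8% higher after Si-FIBP#1 and 17.7% lower and 31.1% higher after Si-FIBP#2, so the counts with the second siRNA are near the background. KPNB1, importin beta itself, which carries the importin alpha and cargo complex through the pore, was at 232.04, 279.34 and 263.64 FPKM in Scramble. It was at 202.4, 182.21 and 186.1 FPKM for Si-FIBP#1 and 186.1, 139.37 and 164.83 FPKM for Si-FIBP#2. The groups did not overlap with Scramble, although Si-FIBP#2 replicate 2 was well below its group. The log2 fold changes were -0.44 and -0.66 (limma, standard error 0.10 for each, adjusted p = 0.00655 and 0.000618). TNPO3, which imports SR-type splicing factors, was the other member lower with each siRNA, as were 13.7% of all genes tested. It was at 35.0, 25.6 and 26.0 FPKM on average (-0.43 and -0.42, adjusted p = 0.000187 and 0.00024, limma).

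IPO13, an importin that also works as an exportin, was the one receptor of these 10 that was higher with each siRNA, beside 21.8% of all genes tested. It was at 14.56, 13.82 and 12.67 FPKM in Scramble, against 17.05, 16.22 and 15.43 FPKM for Si-FIBP#1 and 18.28, 18.26 and 18.21 FPKM for Si-FIBP#2. The depleted samples lay above all Scramble samples, as in 26.3% of all genes tested. The rise of 0.39 after Si-FIBP#2 passed (limma, adjusted p = 0.00113), and that of 0.23 after Si-FIBP#1 (adjusted p = 0.0184) did not pass under median ratio scaling (0.16, adjusted p = 0.0708), with annotated transcripts alone (0.19, adjusted p = 0.0753), without Scramble replicate 3 (adjusted p = 0.0722), without Si-FIBP#1 replicate 1 (0.0634) or without Si-FIBP#1 replicate 2 (0.0509).

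IPO11, IPO5 and TNPO2 passed as lower with Si-FIBP#1, by 0.25 to 0.36 on the log2 scale, but not with Si-FIBP#2 in the fit reported, and their differences between the siRNAs did not pass either (adjusted p = 0.223 to 0.849, limma), except for IPO5 without Si-FIBP#2 replicate 2 (0.22, adjusted p = 0.016). With Si-FIBP#2 all 3 passed as lower under median ratio scaling (adjusted p = 0.0165, 0.0351 and 0.0086), and TNPO2 also under TPM scaling, the filter of 5 FPKM and the replicate block (adjusted p = 0.0469, 0.0443 and 0.0294). The IPO5 call with Si-FIBP#1 did not pass without a filter (adjusted p = 0.0721), without Scramble replicate 1, 2 or 3 or without Si-FIBP#1 replicate 2 or 3 (adjusted p of up to 0.0948). The TNPO2 call with Si-FIBP#1 did not pass without a filter (adjusted p = 0.0717), without Scramble replicate 1 or 2 or without Si-FIBP#1 replicate 2 or 3 (adjusted p of up to 0.11), and with annotated transcripts alone its value was -0.005. TNPO1 and IPO9 passed with neither siRNA, although TNPO1 passed as lower with each under median ratio scaling (-0.20 and -0.24) and for Si-FIBP#2 without its replicate 2 (-0.17, adjusted p = 0.0329).

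IPO4, which imports histones, was uneven between its transcripts. Summed over the gene it was at 35.35, 38.69 and 35.55 FPKM in Scramble, against 22.15, 29.29 and 36.06 FPKM for Si-FIBP#1 and 42.6, 21.54 and 38.38 FPKM for Si-FIBP#2, and it did not pass (limma, adjusted p = 0.262 and 0.632). Its main transcript ENST00000354464 was at 18.2 ± 1.17 FPKM (SD, n = 3) in Scramble and 12.1 ± 0.75 and 14.4 ± 1.90 for Si-FIBP#1 and Si-FIBP#2. A transcript of 297 nt, ENST00000625289, varied from 0.12 to 2.45 FPKM in Scramble, from 0 to 15.75 FPKM after Si-FIBP#1 and from 0 to 11.91 FPKM after Si-FIBP#2. FPKM of transcripts as short as a fragment are imprecise. With transcripts under 500 nt left out, a setting chosen after seeing the data, IPO4 was lower by 0.64 after Si-FIBP#1 and by 0.42 after Si-FIBP#2 (adjusted p = 0.00577 and 0.0341, with log2 values of -0.64 and -0.42).

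Of the 5 exportins that the rule matched, 3 were lower with each siRNA, as were 13.7% of all genes tested. XPO1, the general exportin for leucine-rich export signals, was at 121.02, 119.25 and 118.63 FPKM in Scramble, against 102.18, 92.92 and 104.08 FPKM for Si-FIBP#1 and 91.48, 85.66 and 92.78 FPKM for Si-FIBP#2. All depleted samples lay below the Scramble samples. Its log2 fold changes were -0.26 and -0.41 (limma, adjusted p = 0.00331 and 0.000247). XPO4 was at 9.81, 6.52 and 6.32 FPKM on average (-0.52 and -0.57, adjusted p = 0.00333 and 0.00193), and the first of these did not pass with annotated transcripts alone (-0.38, adjusted p = 0.0673).

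XPO6, the exportin of actin, was at 55.0, 43.9 and 38.3 FPKM on average (-0.32 and -0.52, limma, adjusted p = 0.0364 and 0.00338). Its call with Si-FIBP#1 did not pass without a filter (adjusted p = 0.0952), with annotated transcripts alone (0.0648), without Scramble replicate 1, 2 or 3 or without Si-FIBP#1 replicate 2 or 3 (adjusted p of up to 0.125). XPO5, which exports microRNA precursors, and XPO7 stayed between 95.9% and 104% of Scramble and did not pass, although XPO5 passed as lower with each siRNA under median ratio scaling (-0.14 for each).

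**Figure D2:**
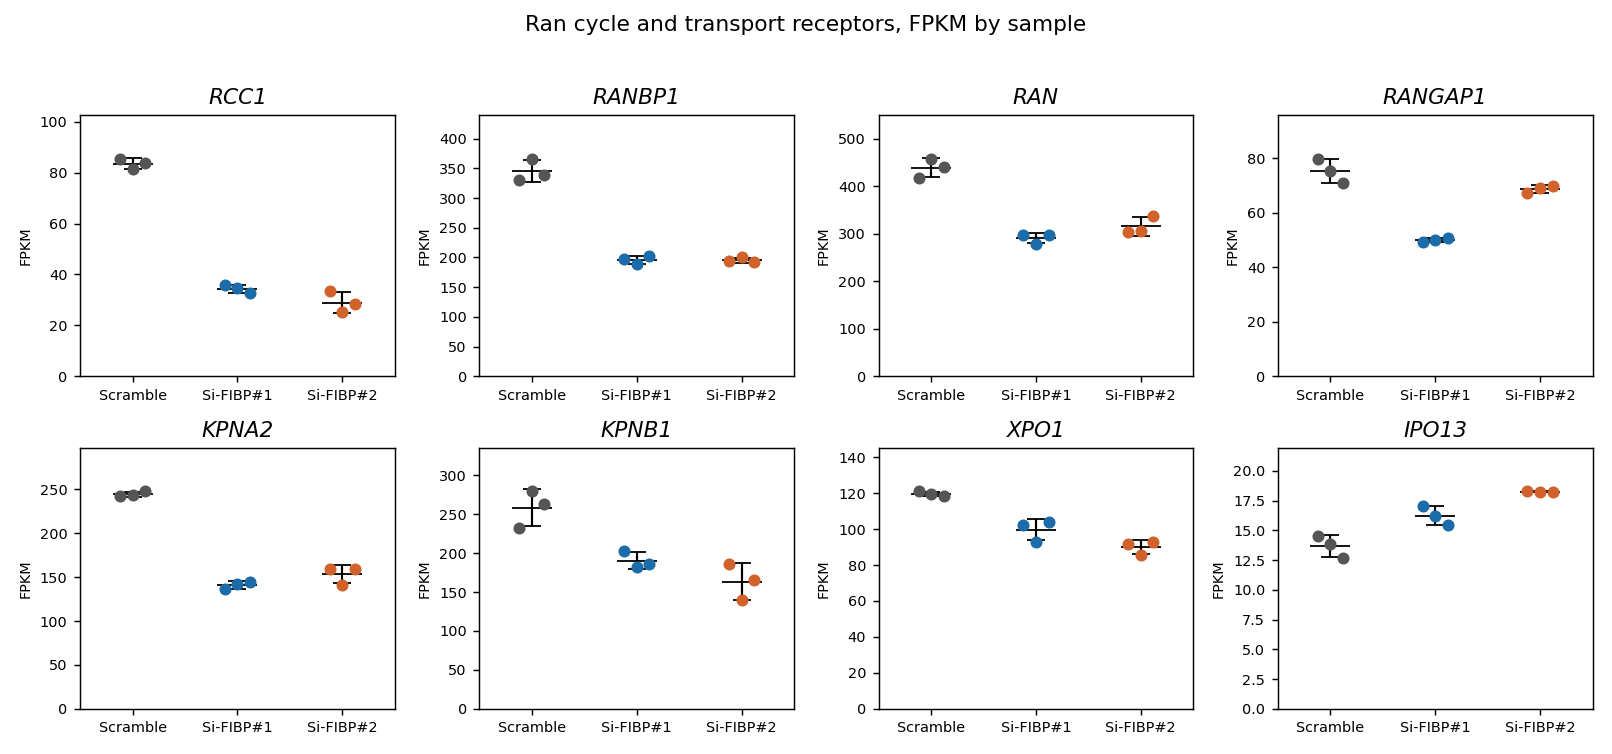
FPKM (y axis, from 0) in each sample of 8 genes of the Ran cycle and of transport receptors, by group (x axis). Points are samples, and bars are the mean and SD (n = 3); RCC1, RANBP1, RAN, KPNA2, KPNB1 and XPO1 lie lower with each siRNA, RANGAP1 lies lowest with Si-FIBP#1, and IPO13 lies higher.

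In the inner ring of the pore, all 5 members passed as lower with each siRNA, as did 13.7% of all genes tested. NUP35 (NUP53), which binds the pore membrane, was at 23.05, 24.2 and 23.61 FPKM in Scramble. It was at 7.78, 8.3 and 9.76 FPKM for Si-FIBP#1 and 10.44, 7.77 and 10.1 FPKM for Si-FIBP#2. Every depleted sample was below 11 FPKM, and the log2 fold changes were -1.36 (limma, standard error 0.11, adjusted p = 1.2e-05) and -1.25 (standard error 0.11, adjusted p = 2.29e-05).

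NUP205, a large scaffold protein of the inner ring, was at 61.75, 61.9 and 60.61 FPKM in Scramble, against 30.64, 31.57 and 34.55 FPKM for Si-FIBP#1 and 39.47, 38.81 and 38.38 FPKM for Si-FIBP#2. Its log2 fold changes were -0.91 and -0.65 (limma, adjusted p = 2e-06 and 1.66e-05). The 3 NUP205 transcripts of at least 2 FPKM, including the intron-retaining ENST00000461255 (23.6, 11.1 and 14.6 FPKM on average), were each lower in both depleted groups. NUP155, its fellow scaffold protein, was at 21.1, 13.4 and 17.1 FPKM on average (-0.61 and -0.29, adjusted p = 9.08e-05 and 0.00682), and the second of these did not pass with annotated transcripts alone (-0.17, adjusted p = 0.116). NUP188 and NUP93 were lower by 0.24 to 0.38 on the log2 scale.

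Of the 3 basket proteins, NUP153 and NUP50 were lower with each siRNA (13.7% of all genes tested were) and TPR was not. NUP153, which anchors the basket to the pore, was at 44.76, 44.7 and 44.64 FPKM in Scramble, against 23.71, 22.43 and 24.91 FPKM for Si-FIBP#1 and 22.26, 21.82 and 20.4 FPKM for Si-FIBP#2. The Scramble samples were within 0.12 FPKM of each other, and the depleted groups were at 53.0% and 48.1% of their mean. The log2 fold changes were -0.89 and -1.02 (limma, standard error 0.06, adjusted p = 3.25e-06 and 1.92e-06). NUP50, which helps to release importin cargo in the nucleus, was at 26.4, 19.8 and 17.8 FPKM on average. TPR, the basket filament itself, was at 26.48 to 28.42 FPKM in Scramble and 26.84 to 30.36 FPKM in the depleted samples, and the groups overlapped (adjusted p = 0.563 and 0.677).

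The Y complex was lower in 5 of 8 members with each siRNA, of which NUP107, NUP37, NUP43 and NUP85 are common to both. Of all genes tested, 19.9% and 17.7% were lower for Si-FIBP#1 and Si-FIBP#2 and 13.7% with each. SEH1L was the fifth after Si-FIBP#1 (-0.37, limma, adjusted p = 0.00124) and NUP160 the fifth after Si-FIBP#2. SEH1L after Si-FIBP#2 passed under 4 of 18 alternatives, which are median ratio scaling (-0.27, adjusted p = 0.0104), annotated transcripts alone (0.0476), the replicate block (0.0361) and without Scramble replicate 1 (0.0372). NUP107 was at 44.01, 41.91 and 43.88 FPKM in Scramble, against 23.68, 24.64 and 25.25 FPKM for Si-FIBP#1 and 21.97, 22.53 and 22.17 FPKM for Si-FIBP#2. All depleted samples were below all Scramble samples, which amounts to -0.79 and -0.93 on the log2 scale (limma, adjusted p = 3.06e-06 and 1.6e-06). NUP133, its direct partner at the tip of the Y stem, was at 10.84 to 13.36 FPKM in Scramble and 11.29 to 13.01 FPKM in the depleted samples (log2 fold changes of -0.01 and 0.02, adjusted p = 0.901 and 0.857).

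NUP43 and NUP85 were at 66.6% to 74.6% of the Scramble mean with each siRNA (adjusted p = 0.0027 or below, limma). NUP37 passed with each siRNA, at -0.17 and -0.36, although the first of these did not pass without Scramble replicate 2 or 3 or without Si-FIBP#1 replicate 1 or 2 (adjusted p of up to 0.0982). SEC13, which also coats vesicles leaving the endoplasmic reticulum and was the most abundant Y complex member at 86.0 FPKM, did not pass (-0.15 and -0.21, adjusted p = 0.221 and 0.0941, limma), except for Si-FIBP#2 under median ratio scaling (-0.33, adjusted p = 0.0117) and without Si-FIBP#2 replicate 2 (-0.30, adjusted p = 0.0231).

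In the central channel, NUP58, NUP62 and NUP54, which form 1 complex, were lower with each siRNA, as were 13.7% of all genes tested. NUP58 was at 23.37, 23.5 and 23.21 FPKM in Scramble, against 12.33, 12.06 and 13.13 FPKM for Si-FIBP#1 and 14.41, 11.0 and 14.42 FPKM for Si-FIBP#2, and the groups did not overlap. Its log2 fold changes were -0.85 and -0.78 (limma, adjusted p = 9.08e-05 and 0.000158). NUP62 was at 27.7, 19.9 and 18.5 FPKM on average (adjusted p = 0.00211 and 0.000626), and NUP54, the most abundant of this group, at 46.5, 37.9 and 39.0 FPKM (adjusted p = 0.00279 and 0.00621). NUP62 overlaps IL4I1 on the same strand, which was itself at 11.5, 4.29 and 5.93 FPKM on average. NUP98 did not pass (-0.07 and -0.08, adjusted p = 0.603 and 0.557).

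Among the 4 tested membrane proteins, NDC1, a transmembrane anchor whose yeast counterpart also holds the spindle pole body in the envelope, had the largest fall. It was at 23.2, 23.36 and 25.07 FPKM in Scramble, against 11.01, 9.88 and 10.69 FPKM for Si-FIBP#1 and 12.6, 10.22 and 12.01 FPKM for Si-FIBP#2. Every depleted sample was below 13 FPKM. The log2 fold changes were -1.11 and -0.98 (limma, standard error 0.08, adjusted p = 7.34e-06 and 1.74e-05).

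The near-identical copies POM121 and POM121C, which share reads and so cannot be separated with certainty, were lower with Si-FIBP#2. POM121 was at 38.72, 36.59 and 36.53 FPKM in Scramble, against 32.08, 33.0 and 32.97 FPKM for Si-FIBP#1 and 23.08, 31.53 and 23.84 FPKM for Si-FIBP#2 (-0.18 and -0.51, limma, adjusted p = 0.164 and 0.0026). The first of these passed under median ratio scaling (-0.26, adjusted p = 0.0441), with the compared groups alone (adjusted p = 0.0158) and without Si-FIBP#2 replicate 2 (adjusted p = 0.00995). POM121C was at 33.3, 28.0 and 20.5 FPKM on average (-0.24 and -0.68, adjusted p = 0.0158 and 4.13e-05), and the first of these did not pass without Scramble replicate 1 (adjusted p = 0.0558). NUP210 was at 20.5, 21.3 and 18.1 FPKM and did not pass, except as lower for Si-FIBP#2 under median ratio scaling (-0.30, adjusted p = 0.014) and without Si-FIBP#2 replicate 2 (-0.30, adjusted p = 0.00354, limma).

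On the cytoplasmic face, RAE1 and AAAS were lower with each siRNA (13.7% of all genes tested were), and NUP214 with Si-FIBP#1. RAE1, which works with NUP98 in mRNA export, was at 34.9, 27.2 and 25.1 FPKM on average (-0.35 and -0.46, limma, adjusted p = 0.00258 and 0.000516). AAAS was at 40.7, 36.3 and 35.7 FPKM (-0.16 and -0.18, adjusted p = 0.0321 and 0.0172), with calls that did not pass without Scramble replicate 1 or 3 (adjusted p of 0.0839 and 0.113 after Si-FIBP#1, and of 0.0509 and 0.0687 after Si-FIBP#2) and, for Si-FIBP#1, without any of its replicates 1, 2 and 3. The NUP214 value of -0.40 (adjusted p = 0.04) did not pass when any single Scramble or Si-FIBP#1 sample, or Si-FIBP#2 replicate 1, was left out (adjusted p of up to 0.127), without a filter (0.106) or with annotated transcripts alone (0.0755). With Si-FIBP#2 it passed only without Si-FIBP#2 replicate 3 (-0.35, adjusted p = 0.0497). NUP88, the most abundant at 56.7 FPKM, and NUP42 did not pass, with a spread of 22.3% and 18.1% of the mean between Scramble samples. NUP88 passed as lower with each siRNA under median ratio scaling (-0.47 and -0.48, adjusted p = 0.0463 and 0.0427) and without Scramble replicate 2 (-0.55 and -0.51, adjusted p = 0.0221 and 0.0279), and for Si-FIBP#2 with transcripts under 500 nt left out (-0.43, adjusted p = 0.0217).

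**Figure D3:**
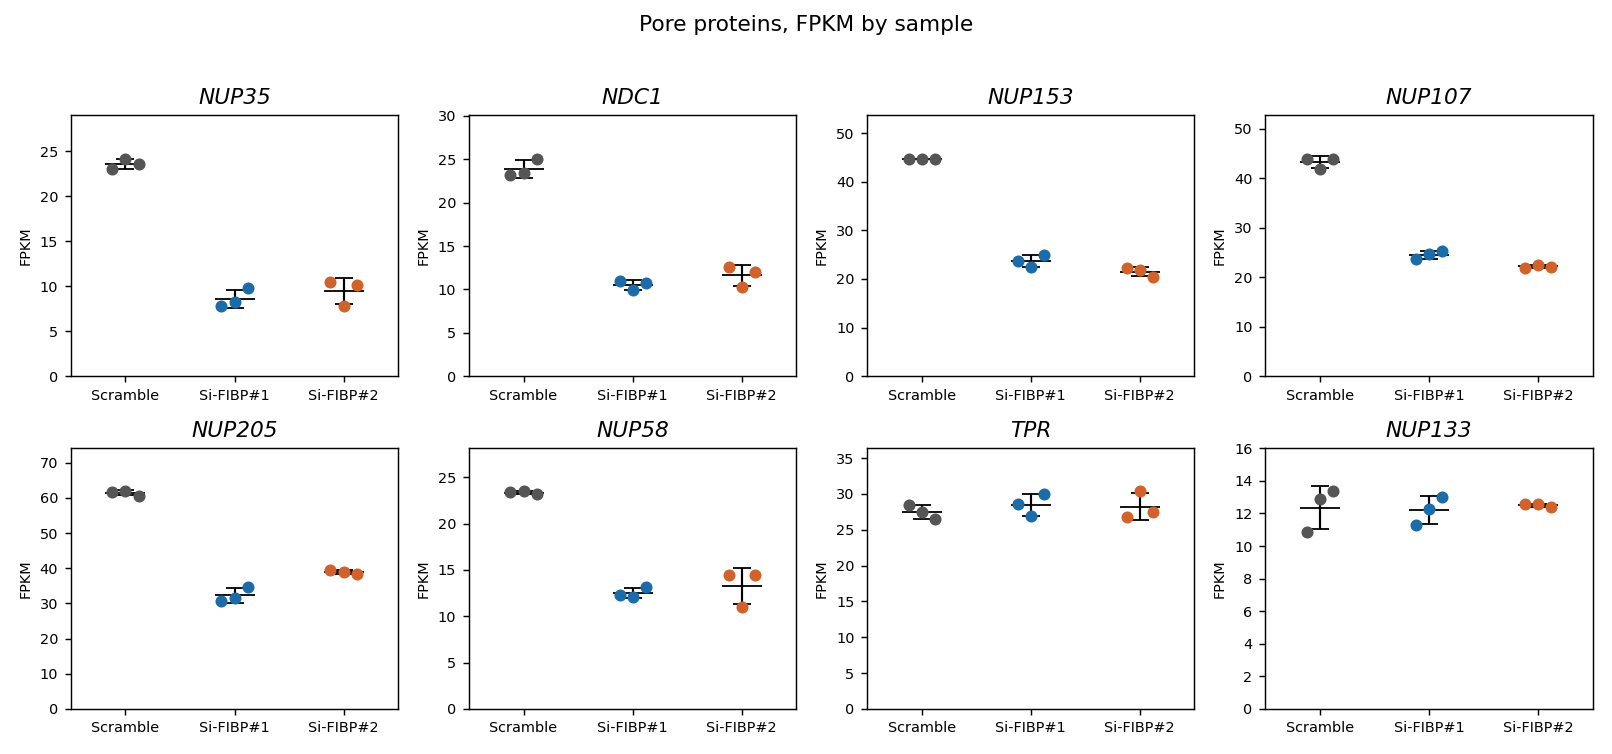
FPKM (y axis, from 0) in each sample of 8 pore protein genes, by group (x axis). Points are samples, and bars are the mean and SD (n = 3). In NUP35, NDC1, NUP153, NUP107, NUP205 and NUP58 all depleted samples lie below all Scramble samples, as in 16.5% of all genes tested. In TPR and NUP133 the groups overlap.

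RANBP2 (NUP358), the SUMO ligase of the cytoplasmic filaments that holds RANGAP1 at the pore, moved the other way. It was at 27.02, 27.42 and 26.11 FPKM in Scramble, against 36.8, 36.12 and 40.74 FPKM for Si-FIBP#1 and 39.17, 40.02 and 37.16 FPKM for Si-FIBP#2. All depleted samples were above all Scramble samples. The log2 fold changes were 0.48 and 0.51 (limma, standard error 0.06, adjusted p = 0.000178 and 0.000123), and they kept their direction under median ratio scaling (0.40 for each).

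The RGPD genes are RANBP2-like genes that the rule did not choose and that were looked up after the values of RANBP2 were seen. They include RGPD5, RGPD6 and RGPD8, which were higher as well. RGPD5 was at 12.49, 17.67 and 13.25 FPKM in Scramble, against 36.2, 29.42 and 22.38 FPKM for Si-FIBP#1 and 27.7, 26.76 and 27.59 FPKM for Si-FIBP#2. RGPD8 was at 5.76, 11.8 and 12.3 FPKM on average and RGPD6 at 5.27, 10.1 and 11.4 FPKM. Each of these 3 passed with each siRNA, as 21.8% of all genes tested did, at a log2 fold change of 0.81 to 1.00 (limma, adjusted p of 0.0086 or below). Their depleted samples lay above all Scramble samples, as in 26.3% of all genes tested. RGPD1 to RGPD4 were at or below 0.56 FPKM in every library and were not tested. Since reads of RANBP2 and these genes can be assigned to each other, the value of each gene in this family is uncertain.

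**Figure D4:**
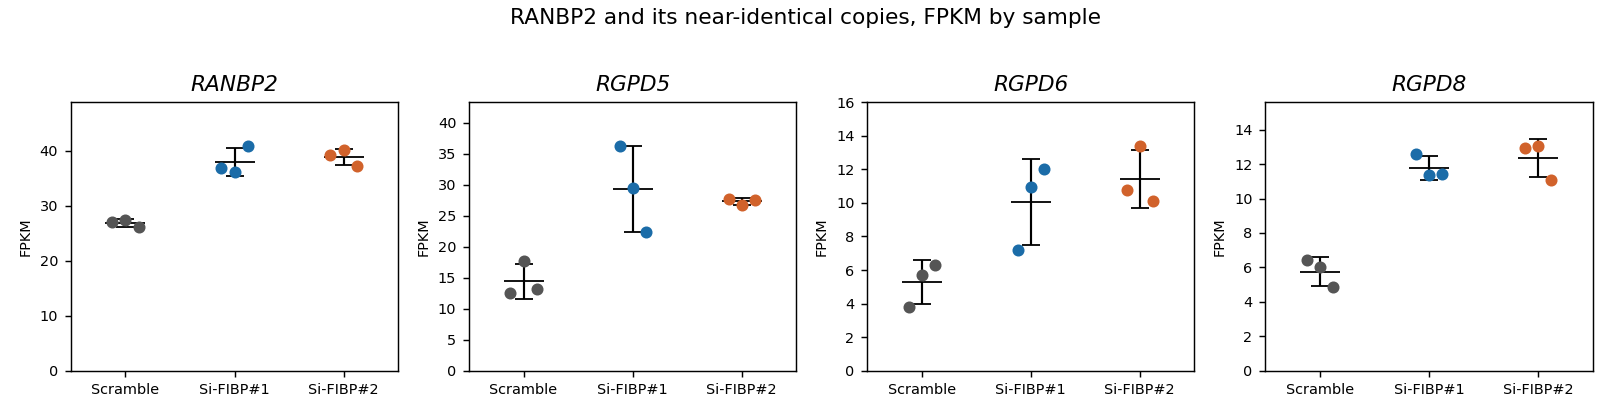
FPKM (y axis, from 0) in each sample of RANBP2 and of RGPD5, RGPD6 and RGPD8, by group (x axis). Points are samples, and bars are the mean and SD (n = 3). In all 4 genes every FIBP-depleted sample lies above every Scramble sample, as in 26.3% of all genes tested. Reads of these 4 genes can be assigned to each other, so they are not separate results.

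The siRNAs were compared directly to see where the response depended on the siRNA used. Between Si-FIBP#2 and Si-FIBP#1, 9 of the 55 members differed, where 15.4% of all genes tested did. The count was 5 without Si-FIBP#1 replicate 1 or without Si-FIBP#2 replicate 3, and 14 without Si-FIBP#2 replicate 2, where KPNA2, KPNA3, IPO5, NUP210, NUP214 and POM121 were added and SEH1L was lost. The share of all genes that differed was not counted with a sample left out. Of the 9 members, 3 were lower with Si-FIBP#2 (5.80% of all genes tested) and 6 were higher (9.58%), and 0 differed over 2-fold (also 0 at an unadjusted p below 0.05, in limma), where 0.294% of all genes tested were lower and 0.267% higher by that much.

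NUP160, the Y complex protein at the base of the arm that carries NUP37, differed most. It was at 20.36, 19.57 and 19.44 FPKM in Scramble, against 20.25, 21.29 and 21.12 FPKM for Si-FIBP#1 and 10.52, 12.55 and 11.09 FPKM for Si-FIBP#2. Thus it was near Scramble after Si-FIBP#1 (0.07, limma, adjusted p = 0.418) and lower after Si-FIBP#2 (-0.75, adjusted p = 3.15e-05), and the difference of -0.82 between the siRNAs passed (standard error 0.07, adjusted p = 0.000299). Its main transcript ENST00000378460 went the same way, at 17.2 ± 0.38, 18.2 ± 0.71 and 9.07 ± 0.93 FPKM (SD, n = 3).

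RANGAP1 was 0.45 higher after Si-FIBP#2 than after Si-FIBP#1 (limma, adjusted p = 0.000912), and POM121C was 0.44 lower (log2 difference of -0.44, adjusted p = 0.00318). POM121, its near-identical copy, was also lower (-0.32), which did not pass (adjusted p = 0.0599) except under median ratio scaling (-0.37, adjusted p = 0.0289), with the filter of 5 FPKM (adjusted p = 0.0436) and without Si-FIBP#2 replicate 2 (-0.46, adjusted p = 0.000784). IPO7, an importin of ribosomal proteins and histone H1, was at 86.06, 87.46 and 86.88 FPKM in Scramble, against 80.53, 80.02 and 85.72 FPKM for Si-FIBP#1 and 100.84, 95.96 and 103.45 FPKM for Si-FIBP#2, a difference of 0.28 between the siRNAs (adjusted p = 0.00502). Its rise over Scramble with Si-FIBP#2 (0.20, adjusted p = 0.0062) was 0.08 under median ratio scaling (adjusted p = 0.233).

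In the inner ring, NUP205 and NUP155 were less reduced with Si-FIBP#2, by differences of 0.26 and 0.32 (limma, adjusted p = 0.0119 and 0.0139). NUP37 was lower after Si-FIBP#2 than after Si-FIBP#1 (-0.19, adjusted p = 0.0364), IPO9 was higher (0.22, adjusted p = 0.0433) and SEH1L, another Y complex protein, was higher (0.22, adjusted p = 0.0449). These last 3 differences were close to the threshold, and with 1 sample left out NUP37 passed only without Scramble replicate 1 or 3 or Si-FIBP#2 replicate 2, IPO9 only without Si-FIBP#2 replicate 2, and SEH1L only without Scramble replicate 1 (highest adjusted p = 0.116, 0.13 and 0.138). With the compared groups alone none of these 3 passed (adjusted p = 0.0696, 0.0903 and 0.0683). The difference of NUP155 did not pass without Si-FIBP#1 replicate 1 (0.28, adjusted p = 0.0519) or without Si-FIBP#2 replicate 3 (0.29, adjusted p = 0.0582).

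**Figure D5:**
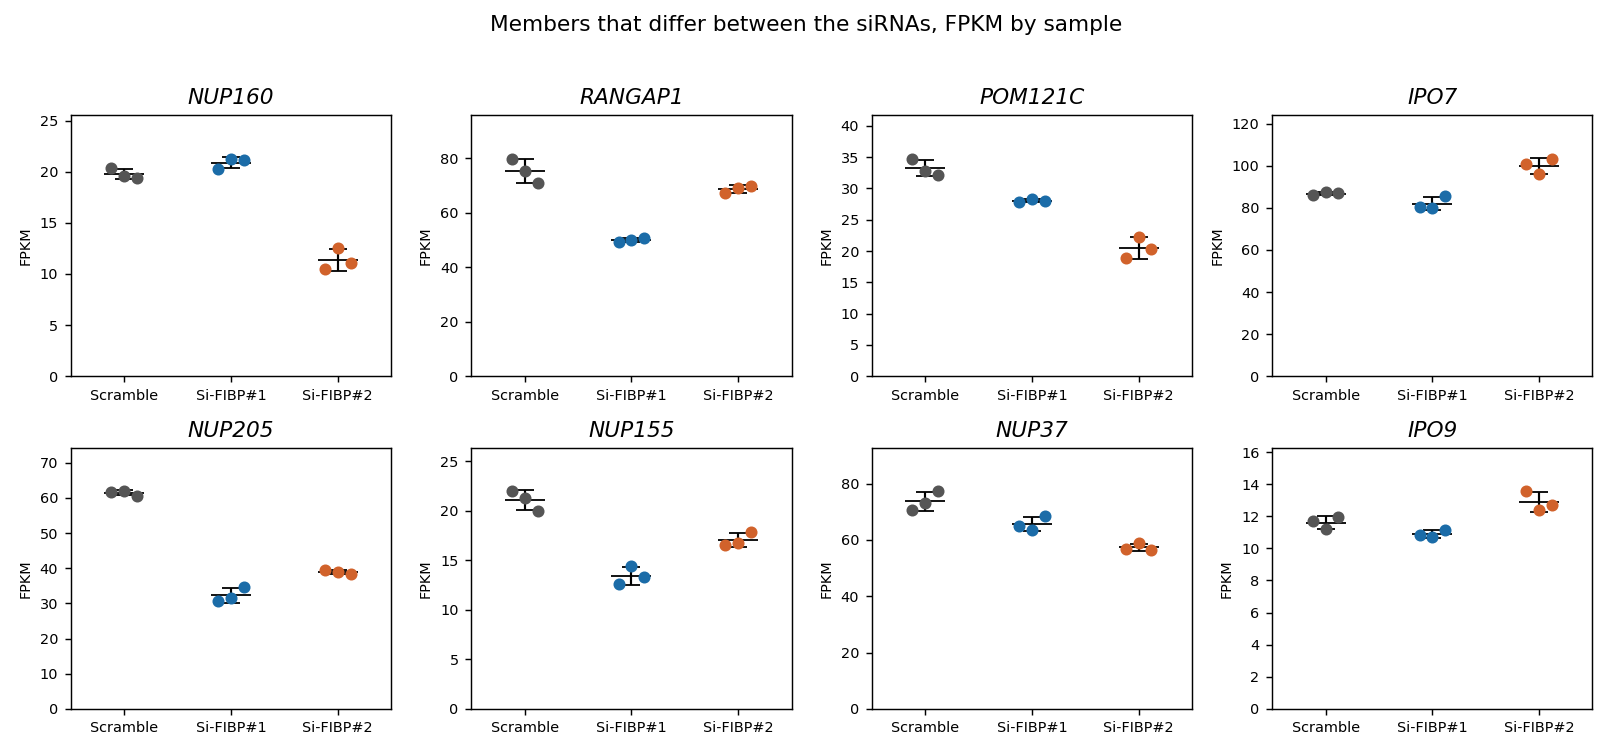
FPKM (y axis, from 0) in each sample of the 8 of 9 differing members with the lowest adjusted p between the siRNAs, by group (x axis). Points are samples, and bars are the mean and SD (n = 3); NUP160 is near the Scramble level after Si-FIBP#1 and lower after Si-FIBP#2, and RANGAP1 has the opposite order.

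Other genes of nuclear transport were taken from a list of 25 outside the rule. With Si-FIBP#1, 9 passed as lower and 0 as higher (limma, and 0 higher also at an unadjusted p below 0.05), beside 19.9% and 27.8% of all genes tested. With Si-FIBP#2, 11 passed as lower and 1 as higher, beside 17.7% and 31.1%. The medians were -0.10 and -0.05 on the log2 scale, against 0.07 and 0.11 over all genes tested. CSE1L, the exportin that returns importin alpha to the cytoplasm, was at 109, 61.2 and 73.9 FPKM on average (-0.83 and -0.56, limma, adjusted p = 3.26e-06 and 3.73e-05). The mRNA export adaptor ALYREF was at 131, 86.7 and 77.3 FPKM (-0.59 and -0.76, adjusted p = 5.64e-05 and 1.41e-05) and PCID2, of the export complex TREX-2, at 33.6, 19.6 and 21.9 FPKM (adjusted p = 0.000219 and 0.000942).

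Cell cycle genes were lower as well. The list of 16 was chosen with earlier results of these data known, so its counts are not an independent result. All 16 were lower with each siRNA, as were 13.7% of all genes tested, with medians of -1.55 and -1.27 on the log2 scale. Their summed level was 1614 to 1663 FPKM in Scramble, 479 to 522 FPKM after Si-FIBP#1 and 582 to 704 FPKM after Si-FIBP#2. The largest falls in this list were those of RRM2 (-2.12 and -1.83), TYMS (-2.20 and -1.53) and FOXM1 (-1.80 and -1.46), and 10 of the 16 were higher after Si-FIBP#2 than after Si-FIBP#1, beside 9.58% of all genes tested. Their part in the result for the pore and transport genes was not tested.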

How the data were processed

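The authors deposited 1 table of FPKM per sample, with rows for Ensembl transcripts and for their own assembled ones, and gene symbols. The unit was taken from the values, which fit FPKM with an effective length, so that very short transcripts can come out too high. The submitters' processing notes name HISAT2 and StringTie. Versions, genome build, annotation and strand setting are not given in the sources used here. Groups and replicates follow the sample labels, and 0 columns of other samples were present.

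FPKM of all transcripts were summed per gene identifier. Genes that reached 1 FPKM in 3 or more of the 9 samples were tested with limma 3.58.1 (R 4.3.3, empirical Bayes with trend) after adding a pseudocount of 1 on the log2 scale, with Benjamini-Hochberg adjustment and a threshold of 0.05. The test had been laid out for counts or normalised values, and the latter applied. The siRNAs were each compared with Scramble and with each other. Alternatives were TPM and median ratio scaling, a pseudocount of 0.1, no filter, a filter of 5 FPKM, only the compared groups, annotated transcripts only, the 2-fold threshold of the study, a block for the replicate number and omission of each sample in turn. Leaving out transcripts under 500 nt was chosen after seeing the data.

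The members and all lists were chosen with earlier results of these data known. Genes are named if they carry the Ran and importin cycle, show the largest fall, largest rise or highest level of their role, pass 2-fold, or differ between the siRNAs (the 8 lowest p). POM121 and POM121C, which are near-identical, and RANBP2, which has similar genes, are named too. At most 3 genes are named from each list of other transport, lamina or cell cycle genes, and cell type markers are named to check the cells. Remaining members are named to account for all of them, and SEH1L, IPO4 and the RGPD genes after their values were seen. On simulated data for Si-FIBP#1 against Scramble with 14985 genes, the test recovered 63% of 100 genes changed by 0.5 and 93% of 100 changed by 1 on the log2 scale, with 5 false calls. No other genes were changed there, whereas in the data 2976 genes passed as lower and 4170 as higher with Si-FIBP#1. The adjusted p threshold was thus stricter in the simulation, and its recovery does not carry over to the fit reported. The depth estimate was likewise tested on simulated data. FPKM carry no counting interval, so precision is given by the spread between samples. Coordinates are from GENCODE 29, and promoters from RefSeq. Python 3.11.15 with numpy 2.4.6, pandas 2.3.3 and matplotlib 3.10.9 was used for tables and figures.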

Additional observations from a re-analysis of the deposited data

Results flagged for a closer look

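The response of 9 members differed between the siRNAs, as tested with the difference between Si-FIBP#2 and Si-FIBP#1 in limma (adjusted p below 0.05 over all genes), which is 9 of 55 tested, beside 15.4% of all genes tested, and so near the background. On the log2 scale, Si-FIBP#2 gave lower values than Si-FIBP#1 for NUP160 (-0.82), POM121C (-0.44) and NUP37 (-0.19). It gave higher values for RANGAP1 (0.45), NUP155 (0.32), IPO7 (0.28), NUP205 (0.26), IPO9 (0.22) and SEH1L (0.22). NUP160 was at 19.8, 20.9 and 11.4 FPKM on average in Scramble, Si-FIBP#1 and Si-FIBP#2. Groups of 3 samples are too small for the check for single outlying samples, which was not run.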

How the results depend on the processing

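At the 2-fold threshold, 3 members were lower and 0 higher with Si-FIBP#1, 3 lower and 0 higher with Si-FIBP#2, and 0 different between the siRNAs (in limma, and the same counts of 0 at an unadjusted p below 0.05), because this threshold asks for a larger change. With Si-FIBP#2, 5 were lower at this threshold under median ratio scaling, and 4 with a pseudocount of 0.1 or without Scramble replicate 1 or Si-FIBP#2 replicate 1. Under median ratio scaling, which shifts the all-gene median for Si-FIBP#2 from 0.11 to 0.01, 40 and 39 members were lower and 2 and 2 higher with Si-FIBP#1 and Si-FIBP#2, and the members' medians were -0.37 and -0.41; lower calls made up 95.1% of calls with Si-FIBP#2 against 85.3% in the fit reported. KPNA4, KPNA6 and IPO7 then lost their rise with Si-FIBP#2 and IPO13 that with Si-FIBP#1. All-gene shares of calls were counted for the fit reported alone, so member counts under the alternatives have none beside them. With 1 sample left out, lower members numbered 27 to 34 after Si-FIBP#1 and 29 to 32 after Si-FIBP#2, and higher members 2 to 3 and 3 to 5, the count of 3 arising without Scramble replicate 2. The members that differed between the siRNAs numbered 5 to 14, with 5 without Si-FIBP#1 replicate 1, 14 without Si-FIBP#2 replicate 2 and 5 without Si-FIBP#2 replicate 3. The cause was not tested. Samples with the same replicate number deviated together weakly at most (correlations of -0.06 to 0.10, against -0.14 to 0.05 for other numbers). With the replicate block 33 and 31 members were lower, 3 and 5 higher and 8 different. Under the 18 alternatives to each fit (the 2-fold threshold aside), 27 of 36 calls with Si-FIBP#1, 29 of 34 with Si-FIBP#2 and 5 of 9 between the siRNAs passed in all, and 0 called values reversed. Changes can be missed where samples spread widely. The largest change of a tested member against Scramble that did not pass was that of NUP88 (-0.39 after Si-FIBP#1, limma, adjusted p = 0.0801). Values of POM121, POM121C, RANBP2 and genes that overlap others are uncertain.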

Other observations

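The lamina and inner envelope, to which pores are attached, were also lower in part. In a list of 14 genes, 9 were lower and 1 was higher with Si-FIBP#1, and 8 were lower and 2 higher with Si-FIBP#2, with medians of -0.36 and -0.19 on the log2 scale. Of all genes tested, 19.9% were lower and 27.8% higher with the first and 17.7% and 31.1% with the second. TMPO, which encodes LAP2 proteins, was at 99.0, 42.9 and 38.9 FPKM on average in Scramble, Si-FIBP#1 and Si-FIBP#2 (-1.19 and -1.33, limma, adjusted p = 7.9e-07 and 6.69e-07). The lamins LMNB1 (119, 51.8 and 64.5 FPKM) and LMNB2 (118, 75.9 and 66.2 FPKM) were lower as well (adjusted p of 5.13e-06 or below). Between the siRNAs LMNB1 was higher and LMNB2 lower with Si-FIBP#2 (0.31 and -0.19, adjusted p = 0.00982 and 0.0161).

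IPO5 has a pair of transcripts of 6001 and 6002 nt, ENST00000261574 and ENST00000651721. In Scramble replicates 1, 2 and 3 the first had 25.4, 9.08 and 17.42 FPKM and the second had 6.5, 24.06 and 16.13 FPKM, so that replicates of the same group differed in which was higher. The sum over the gene was at 64.91 to 65.53 FPKM in the same samples.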
